A study of Mus musculus with 16 samples.

Results

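Oxidative phosphorylation subunits were followed in lung endothelial cells, the cells lining the blood vessels of the lung, together with ND4L, a subunit that the mitochondrial genome codes. Members were the entries of the deposited expression table whose symbol names a nuclear subunit of complexes I to V (symbols starting Nduf with a letter a, b, c, s or v and a number, Sdha to Sdhd, Uqcr, Cyc1, Cox4 to Cox8 and Atp5), plus the entry ND4L, which gave 84 of the 17715 entries. Complex I had 38 members, ND4L included, complex II 4, complex III 9, complex IV 16 and complex V 17. The mice were C57BL/6N females, and the design compared cells from animals with no tumour (d0), animals carrying a subcutaneous primary Lewis lung carcinoma (d15), animals whose tumour had been removed (d22) and animals with metastases (d36). Lewis lung carcinoma is a mouse tumour cell line of the same strain background. Each time point had 4 libraries of total RNA, independent biological replicates by the series design, so 16 libraries in all. One d36 library, replicate 1, carries day 29 in its title and d36 in its time point field. The surface markers of the sort are not given in the sources used here, and no allele or agent beyond the tumour graft is labelled.

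Complexes I to IV pass electrons from NADH and succinate to oxygen, and complexes I, III and IV pump protons across the inner mitochondrial membrane. Complex V, the ATP synthase, uses the proton gradient to make ATP. Most subunits are coded in the nucleus and imported, while the mitochondrial genome codes a small core of membrane subunits in complexes I, III, IV and V. Complex II is coded wholly in the nucleus. Lung endothelial cells are known to draw much of their ATP from glycolysis and to use mitochondrial respiration also for biosynthesis and redox balance.

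ND4L is a membrane subunit of the proton-pumping arm of complex I. Its gene, mt-Nd4l, lies on the plus strand of the mitochondrial genome at chrM:9877-10173 in GRCm38 (mm10) and is shown because its entry had the largest change of all members. It is transcribed as one message with the ND4 gene, and the capitals mark the last 7 bases, which both genes share.
mt-Nd4l: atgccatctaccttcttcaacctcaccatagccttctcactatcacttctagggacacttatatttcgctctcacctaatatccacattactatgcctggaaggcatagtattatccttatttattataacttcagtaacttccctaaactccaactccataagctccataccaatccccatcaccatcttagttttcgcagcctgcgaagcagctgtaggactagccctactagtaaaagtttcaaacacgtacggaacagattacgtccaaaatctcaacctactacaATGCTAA
The gene is short, 297 bases with 41.1% G and C, and a pseudogene on chromosome 1, Gm10222 at chr1:24612407-24612700, is identical to it over 294 bases. The table gives no coordinates, so reads of the gene and of this copy cannot be told apart in the entry.

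ND4L was at 102.6, 201.2, 140.0 and 102.5 RPKM (reads per kilobase of transcript per megaread) in the d0 libraries, at 256.9, 188.2, 131.4 and 191.4 at d15, at 432.6, 505.8, 426.5 and 444.2 at d22 and at 484.7, 431.7, 415.0 and 750.2 at d36. Every d22 and d36 library was above every d0 and d15 library, and d15 overlapped d0. The mean was 452 ± 36.4 RPKM at d22 against 136.6 ± 46.6 at d0 (SD, n = 4 each), a ratio of 3.31 and a log2 change of 1.77 ± 0.23 (SE of limma, on the log2(RPKM + 1) scale, as are all log2 changes here; adjusted p = 0.000385). It was 520.4 ± 156 RPKM at d36, a log2 change from d0 of 1.94 ± 0.23 (adjusted p = 6.2e-05). Between d22 and d15 the log2 change was 1.27 ± 0.23 (adjusted p = 0.00763). At d15 the entry averaged 192 ± 51.3 RPKM, 0.51 ± 0.23 above d0 (adjusted p = 0.284), and d36 differed from d22 by 0.16 ± 0.23 (adjusted p = 0.673). In the order of the means the neighbours d0 and d15, and d22 and d36, thus did not differ beyond their spread. The authors' deposited table gives ND4L a log2 fold change of 1.71 at d22 and 1.89 at d36. Relative to the summed RPKM of the nuclear members, ND4L stood at 9.24 ± 1.04% at d22 and 8.65 ± 2.36% at d36, against 2.09 ± 0.694% at d0.

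**Figure D1:**
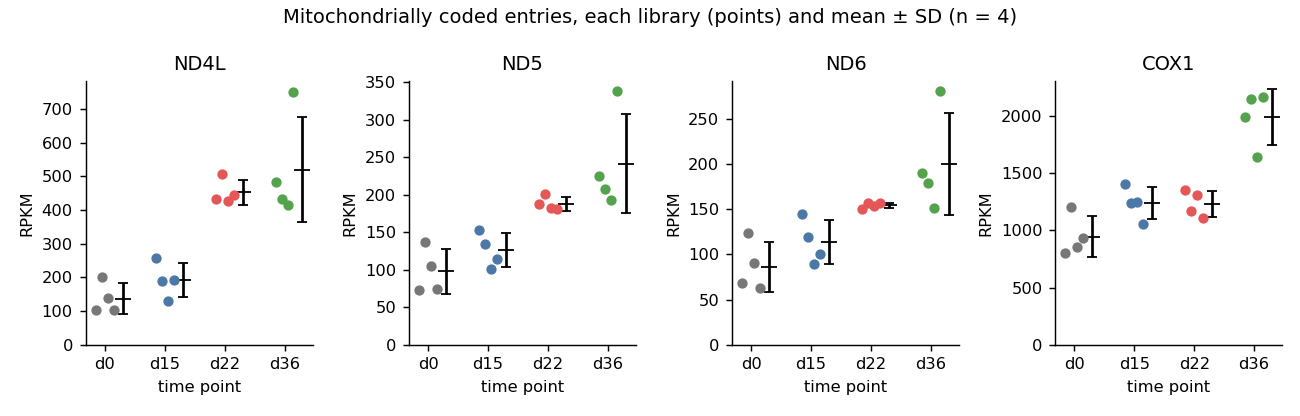
RPKM (vertical axes, from 0) of ND4L and the other mitochondrially coded entries ND5, ND6 and COX1 at the 4 time points, with 1 point per library and the mean ± SD beside it. All ND4L values at d22 and d36 lie at or above 415.0 RPKM and all at d0 and d15 at or below 256.9.

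Other mitochondrially coded entries were looked up as neighbours of ND4L on its genome, and 7 such entries were in the table, 4 of them above the threshold for testing. ND5, a proton-pumping complex I subunit, averaged 187.8 ± 8.99 RPKM at d22 and 241.3 ± 66 at d36, against 97.9 ± 30.5 at d0, log2 changes of 0.98 ± 0.2 (adjusted p = 0.00463) and 1.31 ± 0.2 (adjusted p = 0.000349). ND6, a complex I subunit coded on the opposite strand and overlapping the end of ND5, changed by 0.88 ± 0.21 at d22 (adjusted p = 0.00991) and by 1.22 ± 0.21 at d36 (adjusted p = 0.000713). COX1, the catalytic subunit of complex IV, was at 1990 ± 244 RPKM at d36 against 947 ± 180 at d0 (log2 change 1.08 ± 0.15, adjusted p = 0.000154). Its d22 mean of 1235 ± 114 RPKM was 0.4 ± 0.15 above d0 (adjusted p = 0.0838) and the groups overlapped. Copies exist for COX1 (Gm13340, 97.6% identical over 1545 bases, and Gm29216, 99.8% over 483 bases) and for ND5 (Gm4076, 95.2% over 954 bases), so their counts are uncertain too. Against d0 the 4 entries shared their direction. The step of ND4L from d15 to d22 was not shared by COX1, at 1235 RPKM at d22 and 1238 at d15 (adjusted p = 0.998). ND5 (0.59 ± 0.2, adjusted p = 0.108) and ND6 (0.46 ± 0.21, adjusted p = 0.217) were not called in that comparison. COX1 was called higher at d36 than at d22 (0.68 ± 0.15, adjusted p = 0.00808), where ND4L was not. ND4L stood at 2.31 to 2.52 times the RPKM of ND5 in the d22 libraries and 2.07 to 2.22 times in the d36 libraries, against 1.32 to 1.46 times at d0. The entries COX2, COX3 and ND3 were at 0.724 RPKM or less in every library, and pseudogenes on chromosome 1 match these genes at 99.7% identity or more. ND5 was also the entry most like ND4L over the 16 libraries (Pearson r = 0.974, a description over libraries that share groups), followed by Rnf111, Pura, Sec24b and Kif5b at 0.973 each. The lowest correlations were those of 4930502C15Rik (-0.898), Tyw1, LOC100049077, AK046678 and Zfp689 (-0.875).

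The nuclear members moved the other way at d22. Of the 83, 79 passed the threshold of 1 RPKM in 4 libraries, and Cox6a2, Cox6b2, Cox8b and Ndufs5 did not. Ndufs5, an accessory subunit of complex I, was at 1.1 RPKM or less in every library, and a near-identical copy of it exists. The levels of the 83, per length of transcript, ran from 20 members with a mean of at least 100 RPKM to 15 under 10 RPKM. Their RPKM added up to 5191, 5319, 5005 and 4205 in the d22 libraries, against 6704, 6657, 6319 and 6459.6 in the d0 libraries, and each d22 library was below each d0 library. At d22, 31 of the 79 were called lower than d0 and 0 higher, where 7.1% of all 14303 tested entries were called lower and 8.09% higher. The members' median log2 change was -0.34 against 0.02 over all tested entries, and 71 of 79 had a negative value. In 44 members the 4 d22 libraries lay wholly below the 4 d0 libraries, a state shared by 12.3% of all tested entries. These are bulk samples, in which fewer cells of a type and less RNA per cell cannot be told apart. The authors' deposited table calls 39 of the 81 nuclear members with an adjusted p lower and 0 higher at d22. The share of all its entries was not counted. The symbols also take in 5 entries that are not subunits of the finished complexes by general knowledge (Atp5c1-ps, Atp5s, Atp5sl, Cox7a2l and Ndufa4l2), and without them 31 of 74 were lower.

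The number of calls depended on the processing. With the trend of the changes on transcript length and GC content removed across all genes, 10 nuclear members were lower and 1 higher, against a background of 4.12% lower. With quantile normalization 17 were lower, against 6.62% of all tested entries. With the replicate number as a block 2 were lower and 1 higher, against 2.17% lower and 6.87% higher over all entries. Replicate 2 of d0 shares its number with no other library, so it adds nothing to the block fit. Without d22 replicate 6, the library with the lowest sums, 13 were lower, and the share of all entries was not counted for that fit.

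**Figure D2:**
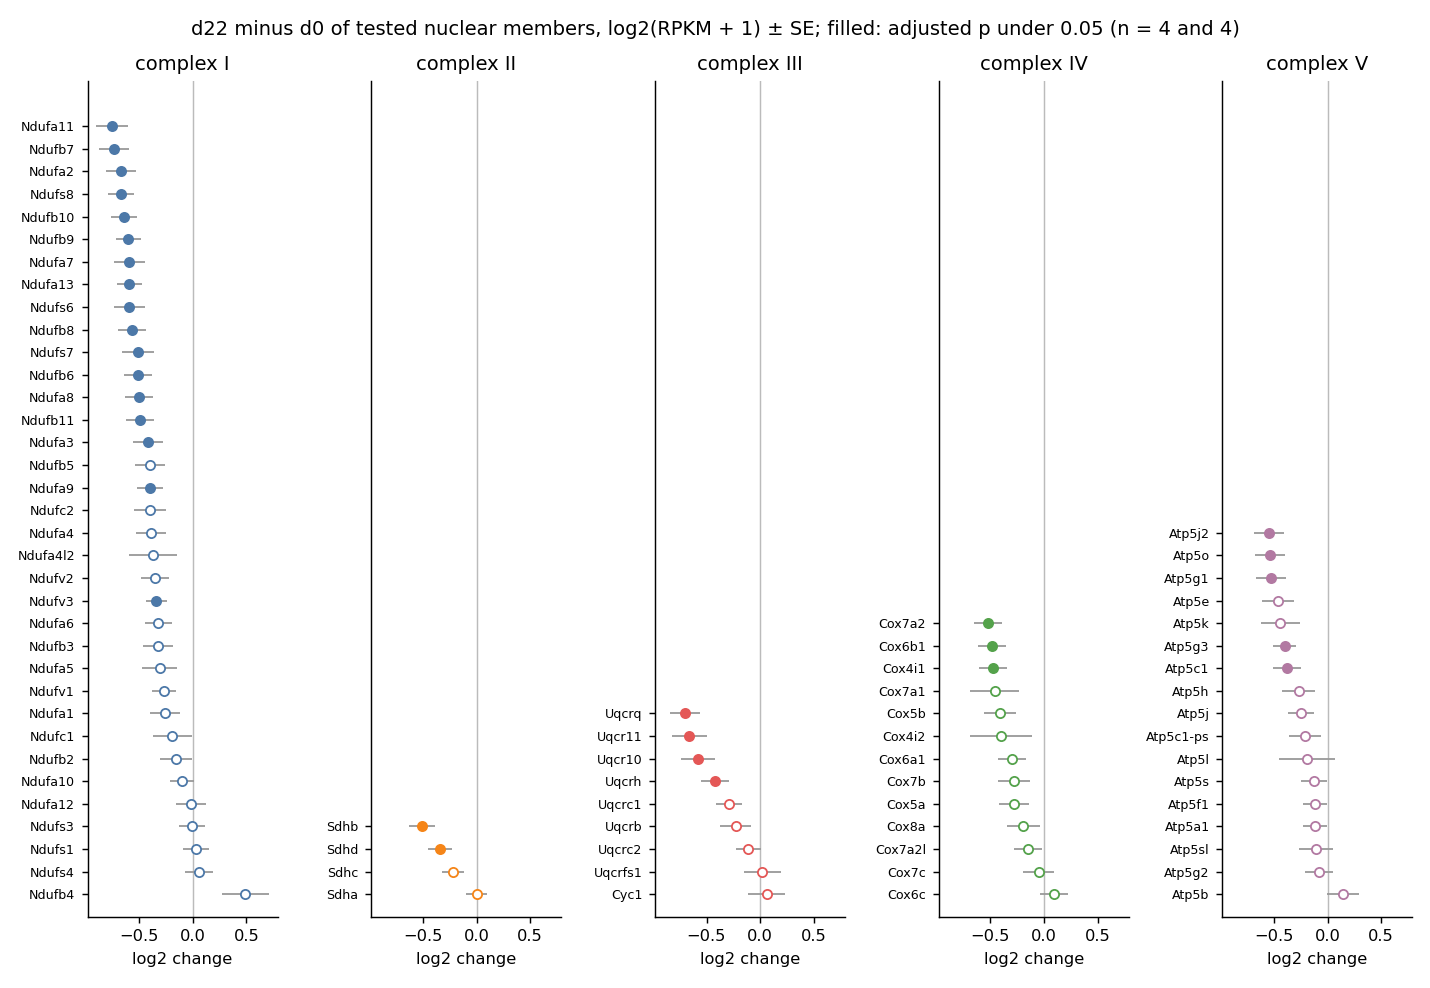
Log2 change, d22 minus d0, with its SE (horizontal axes, log2(RPKM + 1) scale) of the tested nuclear members by complex, all but 1 of them drawn, with filled points for adjusted p under 0.05. The 31 filled points all lie left of 0, and 17 of them belong to complex I.

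Complex I takes electrons from NADH through a peripheral arm of iron-sulfur subunits, around which accessory subunits are arranged. At d22, 17 of its 36 tested nuclear members were lower and 0 higher, with a median of -0.4. Ndufs8, a core subunit that holds iron-sulfur clusters, was at 76.0, 75.8, 71.0 and 54.5 RPKM at d22, against 113.7, 98.6, 117.5 and 111.3 at d0. The groups did not overlap, and the log2 change was -0.67 ± 0.12 (adjusted p = 0.00192). Ndufb7, an accessory subunit of the membrane arm, was at 115.5, 120.0, 119.0 and 94.0 RPKM at d22, against 193.3, 183.8, 185.2 and 182.3 at d0, a change of -0.73 ± 0.14 (adjusted p = 0.00322). Ndufb10, another membrane-arm accessory subunit, averaged 69.6 ± 9.12 RPKM at d22 against 108.0 ± 5.29 at d0 (-0.64 ± 0.12, adjusted p = 0.00311). Across all settings tried for the d22 comparison, Ndufs8 was called in 20 of 20 alternatives, while Ndufb7 and Ndufb10 missed the threshold in 1 each.

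Values differed among the complex I subunits. Of the 7 nuclear core subunits, which carry the electron path, 2 were lower at d22, Ndufs8 and Ndufs7. Ndufs7, the iron-sulfur subunit next to the quinone site, was at 25.7 ± 2.48 RPKM at d22 against 37.1 ± 3.84 at d0. Ndufs1, the largest iron-sulfur subunit, was at 25.6 ± 3.18 RPKM at d22 and 25.0 ± 1.35 at d0, a change of 0.03 ± 0.12 (adjusted p = 0.91), and Ndufs3 was at -0.01. Of the 27 tested accessory subunits, 15 were lower at d22, with Ndufa11, an accessory subunit of the membrane arm, at 74.5 ± 11.9 RPKM at d22 against 124.8 ± 4.58 at d0. The core median was -0.27 and the accessory median -0.4, and the difference between these medians was not tested. The complex I symbols also hold Ndufa4, now known as a component of complex IV, which was at 56.0 ± 7.08 RPKM at d22 against 73.3 ± 3.58 at d0 (adjusted p = 0.0659). Its paralog Ndufa4l2, a hypoxia-induced gene, stayed under 6 RPKM in every library and was called in no comparison.

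The promoters of the 4 called members with the smallest p at d22 that have one in the RefSeq table (GRCm38.p6; 250 bases before to 50 after the annotated start) are shown, since nuclear respiratory factor 1 (NRF1) and ETS-family GABP are known to act on many of these genes. Capitals mark a match to the NRF1 motif (GCGC, any base, then TGCGC) or to the ETS and YY1 motifs spelled out after the sequences, all searched on both strands, and Ndufa11 alone of the 4 holds one, for NRF1.
Ndufs8, chr19:3912725-3913024, minus strand: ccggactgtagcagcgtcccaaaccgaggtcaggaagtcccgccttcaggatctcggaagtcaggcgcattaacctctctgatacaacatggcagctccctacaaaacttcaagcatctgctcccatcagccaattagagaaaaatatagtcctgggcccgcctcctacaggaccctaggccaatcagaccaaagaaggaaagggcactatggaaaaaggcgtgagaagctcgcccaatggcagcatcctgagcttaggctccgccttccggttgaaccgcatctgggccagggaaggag
Ndufb10, chr17:24724374-24724673, minus strand: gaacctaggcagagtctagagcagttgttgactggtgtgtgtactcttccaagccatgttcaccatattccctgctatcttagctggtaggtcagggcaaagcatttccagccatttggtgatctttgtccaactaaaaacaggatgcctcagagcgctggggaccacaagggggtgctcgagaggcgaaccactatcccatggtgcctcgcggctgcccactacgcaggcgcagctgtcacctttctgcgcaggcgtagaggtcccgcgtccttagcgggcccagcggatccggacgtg
Ndufb7, chr8:83566508-83566807, plus strand: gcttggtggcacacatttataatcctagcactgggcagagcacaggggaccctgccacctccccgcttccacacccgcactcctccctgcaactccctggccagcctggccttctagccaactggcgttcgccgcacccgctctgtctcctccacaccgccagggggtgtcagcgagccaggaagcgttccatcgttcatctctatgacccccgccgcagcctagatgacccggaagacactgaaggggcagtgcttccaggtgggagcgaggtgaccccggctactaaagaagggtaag
Ndufa11, chr17:56717512-56717811, plus strand: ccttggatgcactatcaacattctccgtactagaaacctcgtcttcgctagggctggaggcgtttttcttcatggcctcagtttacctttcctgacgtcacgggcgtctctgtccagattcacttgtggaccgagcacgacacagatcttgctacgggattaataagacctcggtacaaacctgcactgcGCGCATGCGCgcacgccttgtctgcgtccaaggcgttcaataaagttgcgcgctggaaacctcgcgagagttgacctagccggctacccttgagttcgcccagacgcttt
Among the 64 members with a promoter in the table, 16 (25.0%) held this motif, against 4.78% of all 27025 promoters. The ETS motif CCGGAAGT stood in 7.8% of the members' promoters and 4.0% of all, and the YY1 motif AAGATGGCG in 9.4% and 1.49%. Matches of 2 of these motifs overlapped in 0 of the members' promoters, and a match describes letters, not binding. Of the tested members with an NRF1 match, 6 of 15 were called lower at d22 with a median of -0.32, beside 21 of 46 and -0.4 without a match.

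Complex II, which oxidises succinate to fumarate, has 4 members and is shared with the citrate cycle. Sdhb, the iron-sulfur subunit, was at 72.4, 74.0, 73.5 and 56.3 RPKM at d22, against 93.0, 94.3, 105.0 and 101.7 at d0. Every d22 library was below every d0 library (log2 change -0.51 ± 0.12, adjusted p = 0.00908). Sdhd, a membrane anchor, was at 50.3 ± 5.21 RPKM at d22 against 63.9 ± 3.14 at d0 (-0.34 ± 0.11, adjusted p = 0.0486). Sdhc, the other anchor, averaged 21.9 ± 1.66 RPKM at d22 against 25.6 ± 1.47 at d0 (adjusted p = 0.177). Sdha, the catalytic flavoprotein, was at 11.9 ± 1.32 RPKM at d22 and 11.8 ± 0.84 at d0, a change of 0.00 ± 0.1 (adjusted p = 0.992). At d36 the 4 genes had changes from d0 of -0.32 to 0.16, none called.

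Complex III passes electrons from quinol to cytochrome c. At d22 the calls lay among its small subunits: of the 4 core genes (Uqcrc1, Uqcrc2, Cyc1 and Uqcrfs1) 0 were lower, and of the 5 small ones 4 were. Uqcrq, a small membrane subunit, was at 40.9, 41.7, 41.9 and 29.3 RPKM at d22, against 65.9, 70.2, 59.9 and 54.6 at d0 (-0.7 ± 0.14, adjusted p = 0.00442). Uqcr11 and Uqcr10, also small membrane subunits, changed by -0.66 ± 0.16 (adjusted p = 0.0119) and -0.58 ± 0.16 (adjusted p = 0.0215). Uqcrh, the hinge protein that binds cytochrome c1, was at 100.9, 114.3, 104.4 and 81.5 RPKM at d22, against 130.4, 147.1, 126.2 and 130.4 at d0 (-0.42 ± 0.13, adjusted p = 0.0371). Uqcrc1, a core protein, had the highest mean of the complex with 224.7 RPKM, and was at 204 ± 22 RPKM at d22 and 250.4 ± 34.2 at d0 (adjusted p = 0.125). Uqcrfs1, the Rieske iron-sulfur protein and the lowest of the complex, was at 23.5 ± 2.01 RPKM at d22 and 23.7 ± 6 at d0. Cyc1, cytochrome c1, was at 55.8 ± 1.38 RPKM at d22 and 53.8 ± 8.5 at d0.

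Complex IV reduces oxygen. Of its 13 tested members, 3 were lower at d22, and 3 were not tested because they were near or below 1 RPKM. Cox4i1, the main regulatory subunit, was at 238.9, 251.7, 219.8 and 180.4 RPKM at d22, against 293.9, 302.2, 312.2 and 319.4 at d0. The groups did not overlap (-0.47 ± 0.13, adjusted p = 0.0255). Cox7a2 changed by -0.52 ± 0.13 (adjusted p = 0.0163) and Cox6b1, which faces the intermembrane space, by -0.48 ± 0.13 (adjusted p = 0.0221). Cox6a1 had the highest mean of the complex, 363.5 RPKM, and was at 323.6 ± 24.2 RPKM at d22 against 397.1 ± 24.2 at d0 (adjusted p = 0.135).

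The paralog pairs of complex IV were read from the widely expressed and the muscle or lung forms. Cox4i2, the form known from lung and hypoxic cells, ran from 2.64 to 12 RPKM and was called in no comparison, while Cox4i1 ran from 180.4 to 348.9 RPKM. The muscle forms Cox6a2, Cox8b and Cox7a1 were at 1.45 RPKM or less, 1.55 RPKM or less and 2.4 RPKM or less in every library, beside 290.1 to 449.7 RPKM of Cox6a1 and 63.9 to 124.2 RPKM of Cox8a, the widely expressed forms. Cox6b2, the testis form of Cox6b1, was under 1 RPKM in all 16 libraries. Striated muscle markers summed to 7.59 to 14.6 RPKM at d22 and 5.16 to 13.9 at d36, against 13.6 to 44.4 at d0.

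Complex V splits into a catalytic head, a stalk and a membrane ring. At d22 Atp5a1 and Atp5b, the alpha and beta subunits that hold the catalytic sites, were not called, at -0.12 ± 0.11 and 0.14 ± 0.15. Atp5j2, a membrane subunit, was at 149.2, 146.3, 136.5 and 110.5 RPKM at d22, against 199.2, 215.6, 190.1 and 188.6 at d0 (-0.55 ± 0.14, adjusted p = 0.0137). Atp5o, of the peripheral stalk, was at 105.5, 113.7, 104.0 and 77.2 RPKM at d22, against 141.6, 144.0, 147.1 and 146.8 at d0 (-0.54 ± 0.14, adjusted p = 0.0163). Atp5g1, Atp5g2 and Atp5g3 code the same ring subunit c with different import sequences. Atp5g3, the most abundant of them, was at 83.0, 96.0, 74.2 and 81.6 RPKM at d22, against 114.2, 119.4, 99.4 and 109.8 at d0 (-0.4 ± 0.11, adjusted p = 0.0221). Atp5g1 was at 14.4 ± 2.19 RPKM at d22 against 21.0 ± 1.6 at d0 (-0.53 ± 0.14, adjusted p = 0.0173), and Atp5g2, the lowest of the complex, was at 1.51 ± 0.22 RPKM at d22 against 1.67 ± 0.355 at d0 (adjusted p = 0.705). Atp5c1, the central stalk subunit with the highest mean of the complex, changed by -0.38 ± 0.13 (adjusted p = 0.0481). The calls of Atp5c1, Sdhd, Uqcrh and Atp5g3 at d22 were lost in 9 to 13 of 20 alternatives.

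At d15, 0 nuclear members were called in limma against d0, where 0.608% of all tested entries were called higher and 0.573% lower, and 57 of 79 had a negative log2 change. Their median was -0.09 against -0.02 over all entries, and the authors' deposited table calls 0 as well. The summed RPKM of the nuclear members was 6638, 6716, 4939 and 5887 in the d15 libraries, of which replicate 5 was the lowest, against 6319 to 6704 at d0. Ndufb7 stood at 144.4, 171.3, 110.3 and 136.0 RPKM at d15, all below d0 (-0.42 ± 0.14, adjusted p = 0.143). Between d22 and d15 only ND4L was called among the members, with a nuclear median of -0.25 and 2.0% of all entries called higher and 1.06% lower. Without d15 replicate 5, 12 nuclear members were called lower at d22 than at d15, so the count rests on that library. The share of all entries was not counted for that fit.

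**Figure D3:**
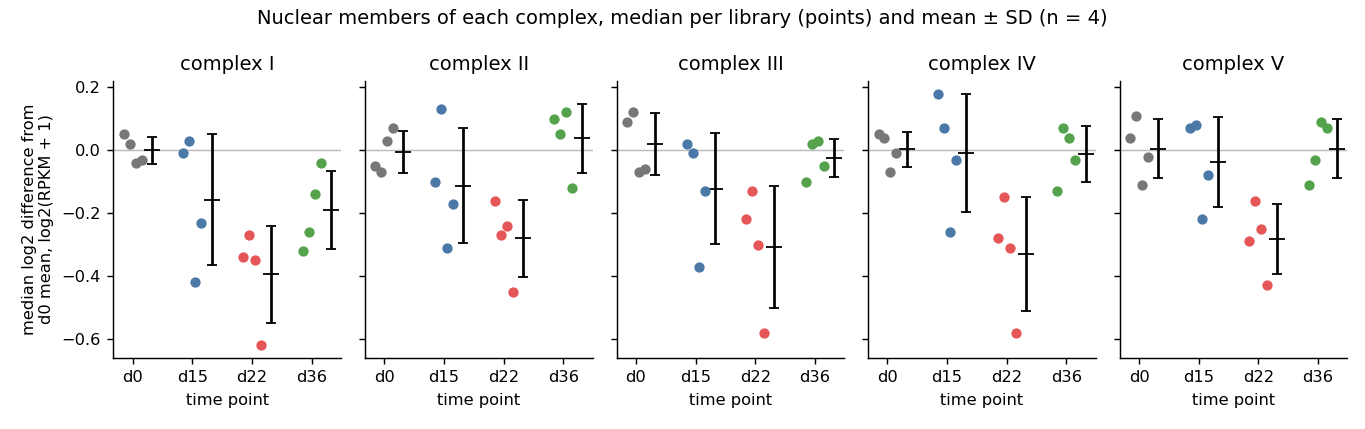
Median log2 difference from the d0 mean (vertical axis, log2(RPKM + 1)) over the tested nuclear members of each complex, with 1 point per library and the mean ± SD of 4 beside it. All d22 points lie below 0, the d15 points spread on both sides of 0 in every complex, and at d36 complex I lies at -0.32 to -0.04.

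At d36 nuclear members were called in both directions. Against d0, 6 of 79 (7.59%) were lower, all in complex I, and 4 (5.06%) were higher, in complexes IV and V. Of all tested entries, 7.37% were called lower and 16.6% higher. The members' lower share was thus near that of all entries, and their higher share was below it. The median was -0.17 in complex I, 0.03 in complex II, 0.04 in complex III, -0.02 in complex IV and 0.03 in complex V, against 0.04 over all entries. Ndufs8 was at 75.0, 77.4, 80.1 and 75.0 RPKM at d36, all below its d0 values of 98.6 to 117.5 (-0.51 ± 0.12, adjusted p = 0.00506). Ndufb7 was at 104.0, 123.7, 117.1 and 157.0 RPKM (-0.58 ± 0.14, adjusted p = 0.00725). Ndufa8 changed by -0.46 ± 0.13 (adjusted p = 0.0152), and Ndufa13, Ndufv3 and Ndufs7 were also lower.

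Higher at d36 than at d0 were Atp5b, Atp5f1, Cox6c and Cox7a2l. Atp5b was at 88.9, 106.0, 104.6 and 61.4 RPKM at d36, against 65.9, 61.2, 50.8 and 61.0 at d0, so that replicate 9 overlapped d0 (0.56 ± 0.15, adjusted p = 0.0112). Cox6c, a small membrane subunit of complex IV, was at 29.4, 29.9, 28.8 and 28.8 RPKM at d36, against 21.9, 25.1, 17.5 and 18.2 at d0 (0.49 ± 0.13, adjusted p = 0.0117). Cox7a2l, a factor of supercomplex assembly rather than a subunit, was at 55.0 ± 4.18 RPKM at d36 against 42.1 ± 1.89 at d0 (adjusted p = 0.0497), and Atp5f1, of the peripheral stalk, at 51.1 ± 5.61 RPKM at d36 against 40.6 ± 4 at d0 (adjusted p = 0.0454). The last pair of calls was lost in 11 and 12 of 20 alternatives. Atp5f1, Cox6c and Cox7a2l have near-identical copies in the genome, and leaving out every nuclear member with such a copy left 1 of 54 higher (1.85%) and 5 lower (9.26%). The split depended on the scaling of the libraries: with each library scaled to the same sum of RPKM, which moved the median of all entries by -0.11 in this comparison, 29 nuclear members were lower and 2 higher, where 15.5% of all entries were then called lower and 11% higher. Without d36 replicate 9 the counts were 17 and 9. Without any one of d0 replicates 1, 2 or 3 or d36 replicates 1, 7 or 8, 4 to 6 nuclear members were called, against 10 with all libraries. The shares of all entries were not counted for these fits or for the fit without d36 replicate 9.

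Between d36 and d22, 11 nuclear members were higher and 0 lower, where 8.73% of all tested entries were called higher and 3.07% lower. Of the members, 76 of 79 had a positive value, with a median of 0.27. With transcripts under 1000 bases, 5 of 47 members (10.6%) were higher, against 187 of 919 such genes in all (20.3%). With longer ones, 6 of 32 members (18.8%) were higher, against 825 of 9194 genes (8.97%). Of the 11, 7 have a near-identical copy elsewhere in the genome and their counts are uncertain (Atp5c1, Atp5f1, Atp5g1, Atp5g2, Cox5b, Cox7a2l and Ndufb9). Leaving out every nuclear member with such a copy left 4 of 54 higher, or 7.41%, a share below that of all entries. Complex V had 6 of the 11, all 3 subunit c genes among them, and the calls of Atp5g1, Atp5g2 and Atp5g3 were lost in 5 of 19, 13 of 18 and 9 of 19 alternatives. Atp5g3 was at 108.7, 124.8, 113.5 and 104.2 RPKM at d36, above all its d22 values (0.43 ± 0.11, adjusted p = 0.0191), and Atp5g1 changed by 0.54 ± 0.14 (adjusted p = 0.0175). Uqcrh was at 135.5, 150.7, 135.7 and 148.4 RPKM at d36 (0.51 ± 0.13, adjusted p = 0.0167). Ndufb9, an accessory subunit of complex I, was at 79.1 ± 6.67 RPKM at d36 against 58.6 ± 8.37 at d22. The count was 0 nuclear members without d22 replicate 6, 3 without d36 replicate 7, 2 without d36 replicate 8 and 6 without d22 replicate 5. It was 19 without d36 replicate 9, and the share of all entries was not counted for any of these fits. After scaling to the same sum the count was 1. That scaling moved the median of all entries by -0.15 and left 4.85% of all entries higher and 9.14% lower.

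**Figure D4:**
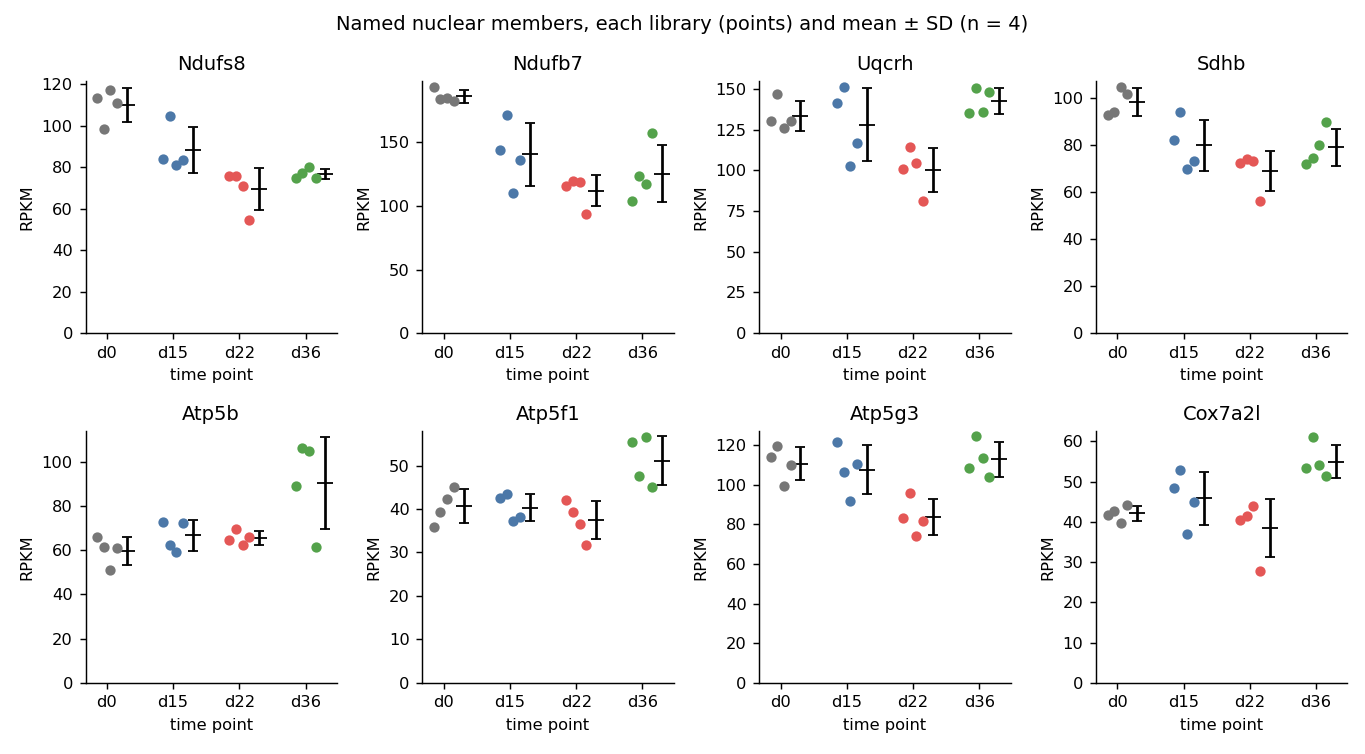
RPKM (vertical axes, from 0) of 8 named nuclear members at the 4 time points, with 1 point per library and the mean ± SD of 4 beside it. Ndufs8, Ndufb7, Uqcrh, Sdhb and Atp5g3 lie lower in all d22 than in all d0 libraries, and Atp5b at d36 spreads from 61.4 to 106.0 RPKM.

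Summed levels of marker genes of other cell types are given as ranges over libraries, with no test. The tumour-associated genes Rhox5 and Lgals1, both in the table, summed to 42.2 to 686.4 RPKM at d36, against 2.5 to 3.59 at d0, with replicate 9 the lowest of d36. Proliferation markers (8 of 8 in the table) summed to 8.21 to 106.9 RPKM at d36 against 1.14 to 1.75 at d0, again lowest in replicate 9. Leukocyte markers (12 of 14) summed to 62 to 217.6 RPKM at d36 against 26.3 to 47.6 at d0. Lyz2 made up most of the leukocyte sum at d0 and d22, with means of 33.3 and 34.6 RPKM, and averaged 62.9 at d36. Coro1a, Tyrobp and Laptm5 of that list averaged 8.91, 9.71 and 1.84 RPKM at d36, against 0.521, 0.526 and 0.0784 at d0. Endothelial markers (12 of 12) were high throughout. They summed to 4039 to 5285 RPKM at d36 and 4995 to 5683 at d22, against 5946 to 7062 at d0. Egfl7, the most abundant of the list, averaged 1773 RPKM at d22 against 2307 at d0, and Cldn5 843.6 against 1184. Cdh5, Tie1, Kdr, Emcn, Erg and Esam also had lower means at d22. The means of Pecam1 (686.7 against 671.6), Tek (326.4 against 288.8), Eng (60 against 51.4) and Vwf (71.2 against 44) were higher. At d22 the tumour-associated genes summed to 4.51 to 5.82 RPKM, proliferation markers to 1.81 to 12.5 and leukocyte markers to 17.6 to 64.8. Lung epithelial markers (10 of 11) summed to 462 to 1132 RPKM at d36 and 1129 to 1624 at d22, against 785.4 to 1969.5 at d0, with Sftpc and Scgb1a1 the most abundant of the list in every group mean. The keratins of that list, Krt8 and Krt18, averaged 33.5 and 53.3 RPKM at d36, against 0.755 and 1.5 at d0, and were lowest in replicate 9 among the d36 libraries. Epcam, a defining epithelial marker, averaged 0.123 RPKM or less in each group. Mesenchymal markers (6 of 9) summed to 47.0, 31.4, 43.4 and 10.7 RPKM at d36, the last in replicate 9, and to 12.2 to 29 at d22, against 9.74 to 14.4 at d0. Erythroid markers (4 of 9) summed to 9.12 to 37.7 RPKM at d15, 1.83 to 14.7 at d22 and 4.88 to 24 at d36, each d15 and d36 library above the 1.29 to 3.71 at d0. The part of these differences in the members' values was not tested.

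Transcript length, GC content and level moved with the d22 values. Over all tested genes with a length, the median change at d22 ran from -0.25 in the shortest decile to 0.213 in the longest. Of the 47 tested nuclear members with a transcript under 1000 bases, 23 (48.9%) were lower, against 239 of the 919 such genes in all. Of the 32 longer members 8 (25.0%) were lower, against 602 of 9194 genes. Within the nuclear members the rank correlation of the change with length was 0.42, with GC content -0.41 and with the mean RPKM -0.57 (Spearman's rho over 79 genes of the same libraries, a description). Of the 31 members called lower, 8 have a near-identical copy elsewhere in the genome, and their counts are uncertain (Atp5c1, Atp5g1, Atp5o, Ndufa13, Ndufb6, Ndufb9, Ndufb11 and Ndufs6). Leaving out every nuclear member with such a copy left 23 called lower of 54.

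**Figure D5:**
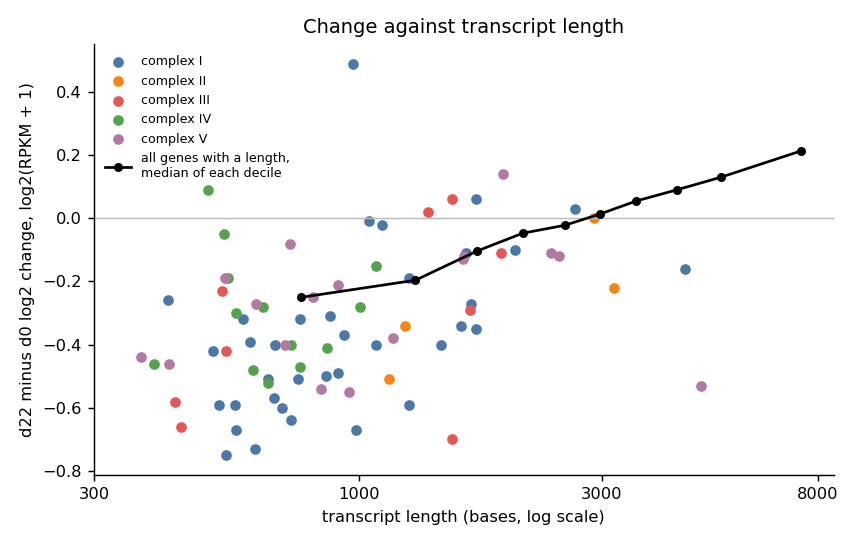
Log2 change, d22 minus d0 (vertical axis, log2(RPKM + 1)), of the 79 tested nuclear members against transcript length in bases (log horizontal axis), coloured by complex, with the median of each length decile of all genes as a black line. Of the members under 1000 bases, 45 of 47 lie below 0, and the line runs from -0.25 to 0.213.

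Genes that serve the same machinery, from lists of pathway genes, gave these counts at d22 against d0. Of all tested entries, 7.1% were called lower and 8.09% higher in this comparison. The mitochondrial ribosome, which translates the mitochondrially coded subunits, had 35 of 73 tested genes lower and 0 higher (median -0.36), led by Mrps16 at 23.8 ± 3.14 RPKM at d22 against 42.2 ± 2.3 at d0. Assembly factors had 5 of 34 lower and 0 higher, among them Ndufaf3 of complex I (-0.66 ± 0.15) and Cox14 of complex IV (-0.58 ± 0.1). Carriers and the ATP synthase inhibitor had 4 of 12 lower, including Slc25a4, the adenine nucleotide translocase (-0.42 ± 0.11), and Atpif1, the inhibitor (-0.43 ± 0.13). The citrate cycle had 1 of 17 lower and 1 higher, Idh3g (-0.33 ± 0.11) and Sucla2 (1.13 ± 0.13). Genes of mitochondrial gene expression had 1 of 15 lower, Tefm, and 1 higher, Gabpa, a subunit of the ETS factor GABP (0.58 ± 0.14). The shares of these lists, 5.88% and 6.67% in each direction, were below those of all entries. Cytosolic ribosomal proteins, many of which have near-identical pseudogenes, had 7 of 74 lower and 1 higher at d22. At d36 against d0, 47 of these 74 (63.5%) were higher, as were 5 of 17 citrate cycle genes (29.4%), against 16.6% of all tested entries. The mitochondrial ribosome had 10 of 73 lower (13.7%) and 3 higher (4.11%), against 7.37% lower and 16.6% higher over all entries.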

How the data were processed

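RNA of sorted lung endothelial cells was sequenced in 4 groups of 4 libraries. Per the labels, the SMARTer Ultra Low kit was used, on 10 ng of RNA. The authors deposited RPKM values per entry, per the file headers. Beside them the authors deposited log2 fold changes with adjusted p-values at the 3 later times, and the headers name no comparison group. STAR, DESeq2 and mm10 stand in the submitters' processing notes, and the annotation, strand setting and RPKM length are not given in the sources used here. Depth, estimated from the steps of low RPKM values, was about 93.4 to 152.1 M (mega) reads a library, so 1 RPKM is at least 93 reads per kilobase. The absolute depth rests on 46 genes with 1 annotated transcript, taken at their annotated lengths. In a check of the relative depths, only 9.1% of 4043 low entries came out as whole reads within 0.1 read in all libraries. Counts were therefore not rebuilt and a count model was not used.

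A threshold of 1 RPKM reached in 4 or more of the 16 libraries left 14303 entries for 1 limma fit (version 3.58.1, R 4.3.3) with an intensity trend over all 16 libraries on log2(RPKM + 1), which understates changes of low genes. The 5 comparisons were two-sided and adjusted by the Benjamini-Hochberg method over all entries tested, at 0.05. Copies were sought with blastn 2.17.0 at 95% identity over 200 bases, and transcript lengths came from GENCODE M21. The comparisons with d0 share the d0 libraries, and d22 is shared likewise. Named genes were ND4L, complex II, the paralog sets, the 3 called members with the smallest p per comparison, complex and direction, the highest and lowest members of each complex and the entries most and least like ND4L; further genes were named after their values were seen. Members, lists and role groups were chosen with earlier results of these data known. Alternatives were other pseudocounts, filters and scalings, removal of a length and GC trend, and 2 groups alone. Further ones were array weights, a replicate block, each library left out and the authors' deposited values. In the block fit d36 rests on replicate 1 alone, as its other replicate numbers occur in no other group. Shares of all entries were not counted for fits with 1 library left out or for the deposited values. Values of 1 nuclear member are not reported here, while the counts and medians include it.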

Additional observations from a re-analysis of the deposited data

Results flagged for a closer look

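Summed RPKM of the 4 complex II genes was 129.5 in d22 replicate 6, far below the other d22 libraries at 159 to 164.7. Chance marks about 1 in 20 groups of 4, and 28 groups were examined. The same library had the lowest sum of nuclear members at d22, and the d22 results without it are given with the counts.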

How the results depend on the processing

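For d22 against d0, 32 members (31 nuclear and ND4L) were called with all libraries. The count was 18 with quantile normalization (median log2 change -0.22 over the members), 11 with the length and GC trend removed (-0.19) and 4 with the replicate block (-0.21), and 14 to 27 with 1 library left out, the lowest without d22 replicate 6. The median stayed between -0.37 and -0.27 with 1 library left out. Of all tested entries 7.1% were called lower where 32 members were called. That share was 6.62% with quantile normalization, 4.12% with the trend removed and 2.17% with the block.

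For d36 against d0, 11 members were called. Scaling to the same sum gave 32 (median -0.19), to the same median 23 (-0.20), quantile normalization 24, the length and GC trend removed 25 (-0.24), array weights 30, the 2 groups alone 7 and the replicate block 1 (-0.17), with 5 to 27 when 1 library was left out and medians of -0.10 to 0.01. For d36 against d22, 11 were called, against 1 (median 0.08) with the same sum, 5 with the same median and 2 (0.08) with quantile normalization. The count was 1 (0.03) with the length and GC trend removed, 1 with the 2 groups alone and 26 with array weights. The block fit, with d36 replicate 1 alone, gave a median of 0.03. With 1 library left out it was 0 to 19 (0.18 to 0.30). Of all tested entries 8.73% were higher where 11 members were called. That share was 4.85% with the same sum, 6.39% with the same median, 6.5% with quantile normalization and 5.46% with the trend removed. It was 2.51% with the 2 groups alone and 17.8% with array weights. For d22 against d15, 1 was called, against 3 with the same median, 0 with the trend removed, 11 with array weights, 2 with the block and 1 to 13 with 1 library left out (medians -0.34 to -0.18). For d15 against d0, 0 members were called, 1 with array weights, 1 with the block and 0 in each leave-one-out fit (medians -0.16 to 0.01). The cause was not tested.

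ND4L was called at d22 and d36 against d0 and at d22 against d15 in every alternative that gave it a value. Its change from d0 was 1.66 to 2.22 at d22 and 1.75 to 2.30 at d36, and with 1 library left out 1.66 to 1.98 and 1.75 to 2.14, with 1.10 to 1.42 for d22 against d15, 0.35 to 0.71 for d15 against d0 and -0.03 to 0.26 for d36 against d22. With the replicate block its d15 change was 0.81 (adjusted p = 0.0456). It has no transcript length under its symbol, so the length and GC fit gave it no value. The d36 value of the block fit rests on d36 replicate 1 alone.

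The 9 pairs of libraries that share a replicate number across groups correlated at -0.111 to 0.216, and 2 were over 0.1. Pairs with different numbers were not compared, so whether the replicate numbers pair the samples was not tested. The deposited RPKM come without counting errors, and members near 1 RPKM rest on the fewest reads.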
